A study of Mus musculus with 19 samples.

Results

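The comparison set cultures of the mouse line P19CL6 at day 14 of differentiation, when spontaneous beating was seen, against cultures of the same line at day 1. It covers every gene that the authors' deposited table lists for these days, 2823 genes, out of 4213 genes listed at any of the later days 4, 7, 10 and 14 against day 1. P19CL6 is a line of mouse embryonal carcinoma cells, undifferentiated tumour cells that can form beating heart muscle. The labels give the line and the day, name no inducing agent and no sorting step, and describe 4 libraries at day 14 and 3 at day 1, with 19 libraries over all 5 days. All groups are 1 cell line, and nothing in the labels says whether libraries came from separate cultures.

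Heart muscle cells contract because thick filaments of myosin pull on thin filaments of actin, and the troponin complex on the thin filament opens and closes the myosin sites with each pulse of calcium. Thin filaments are anchored in Z discs, and calcium enters and leaves through channels, pumps and exchangers of the cell membrane and of the sarcoplasmic reticulum. Early heart tubes use the atrial light chains Myl7 and Myl4 widely before chambers take on their own isoforms. Embryonal carcinoma cells carry the programme of the early embryo, with Pou5f1 as a core regulator, and lose it as they form mesoderm.

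Expression was measured by tag counting, in which a short tag from 1 position of each transcript is sequenced and counted. The deposited means and TPM values imply totals of about 23840000 tags over the 4 libraries of day 14 and 17420000 tags over the 3 libraries of day 1. Levels are in TPM as deposited, which relates the count of a gene to the total of its library. Only the mean of each day was used, so no value has a replicate error and no test between replicates could be made. Here "rose" and "fell" mean that the authors' deposited table lists the gene as higher or lower at day 14, and a gene that is not listed did not pass their filter or has no entry under its symbol. Folds come from tag sums and library totals, and their intervals are exact Clopper-Pearson 95% intervals that cover counting error only. Where a day had 0 tags, the fold uses 3 tags for all libraries of that day together (0.172 TPM at day 1 and 0.126 TPM at day 14). Such folds are worded "at least" and are bounds set by that floor only. The lower end of the 95% counting interval lies below them. Sums of 1, 3, 4 and 5 tags occur in 0 genes at day 1, and how low counts were handled is not known, so a deposited sum of 0 or 2 may not be a true count, which limits every fold set against one. Tags are short, so those in sequence that near-identical genes share (Myh6 and Myh7, the actins, the globins) may be counted for either gene.

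Among the 2823 listed genes, 2100 rose (74.4%) and 723 fell (25.6%), and the median log2 fold of all of them was 1.59. The 2100 risen genes had a median of 18.4 TPM at day 14 and 4.19 TPM at day 1, with a median rise of 4.21-fold. The 723 fallen genes had a median of 15.9 TPM at day 14 and 43.3 TPM at day 1, with a median fall of 2.64-fold. Large changes lay mainly upward. At day 14, 661 genes (23.4%) were at least 8-fold higher and 45 (1.59%) at least 8-fold lower, and 270 genes (9.56%) rose that had 0 tags at day 1. The counts of each list below are to be read beside these shares, since a rise is the common case among listed genes. A listed gene with 0 tags at day 1 can only be a risen one. The direction of such genes was thus fixed in advance and says nothing about their list. If both days are scaled so that the median listed gene does not change, the shift is 1.59 on the log2 scale. By definition the genes then split evenly, with 1411 above and 1412 at or below that median. A gene that rose by less than 3.02-fold turns to a fall. The listed genes all changed at least 2-fold and held 11.4% of TPM at day 14 and 9.90% at day 1. Genes outside the table would shift down too, so a turn under this scaling does not decide the direction of a gene.

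**Figure D1:**
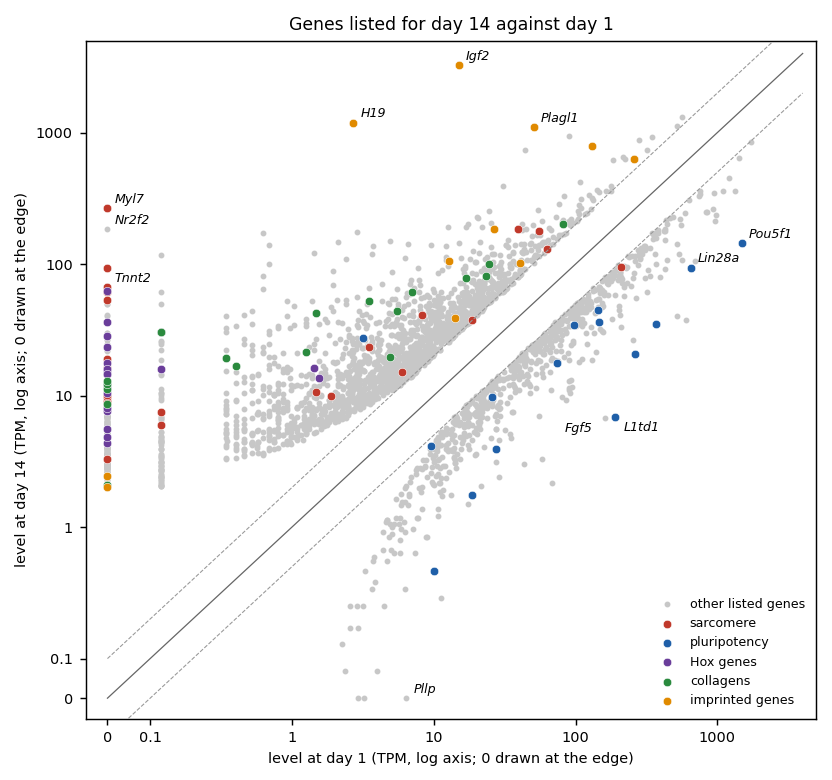
Level of each of the 2823 listed genes at day 14 (vertical axis) and day 1 (horizontal axis), both in TPM on log axes with 0 drawn at the edge; colours mark 5 gene lists, the solid line marks equal levels and the dashed lines 2-fold differences. Sarcomere and Hox genes crowd the left edge, where day 1 is 0, Igf2, H19 and Plagl1 stand at the top, and pluripotency genes lie below the lower dashed line except for 1 that rose.

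The 4 marker genes of these cultures, the light chain gene Myl7, the troponin T gene Tnnt2, the slow myosin gene Myh7 and the caveolin gene Cav1, were all at 0 tags at day 1. Myl7 stood at 267 TPM at day 14, at least 1552-fold higher than at day 1. Tnnt2 stood at 66.7 TPM (at least 388-fold higher), Myh7 at 53.5 TPM (at least 311-fold) and Cav1 at 61.3 TPM (at least 356-fold). A set of 16 heart muscle markers includes these 4, among them Cav1, a gene of many cell types. Of the 16, 12 rose and 11 of these came from 0 tags. The 12 summed to 671 TPM at day 14 and 1.49 TPM at day 1. These counts and sums are not separate from the values of the 4 genes above. Actc1, Actn2, Nppa and Ttn, the cardiac actin, the Z disc actinin, atrial natriuretic peptide and titin, are not in the day 14 table, so their levels are not known from it. These are bulk cultures, in which fewer cells of a type and less RNA per cell cannot be told apart.

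The promoters of these 4 genes are shown because the genes had 0 tags at day 1 and mark the beating cultures. Each run is 300 bases, 250 before to 50 after the start of the gene, 5′ to 3′ on the strand of the gene, from RefSeq on build GRCm38.p6, which differs from the build of the tags. Capitals mark matches to 5 motifs searched on both strands: the TATA box letters TATAAA, the GATA factor letters AGATAA, the TEAD factor letters CATTCC, the CArG box of serum response factor and the MEF2 site. Positions count bases before the start, and none of these marked matches overlaps another. Tnnt2, Myh7 and Cav1 each have another window in the RefSeq table, at an alternative start, that holds no match to any of the 5 motifs and is not printed.
Myl7 (chr11:5898733-5899032, minus strand; CATTCC at 70 and a CArG box at 61 bases before the start): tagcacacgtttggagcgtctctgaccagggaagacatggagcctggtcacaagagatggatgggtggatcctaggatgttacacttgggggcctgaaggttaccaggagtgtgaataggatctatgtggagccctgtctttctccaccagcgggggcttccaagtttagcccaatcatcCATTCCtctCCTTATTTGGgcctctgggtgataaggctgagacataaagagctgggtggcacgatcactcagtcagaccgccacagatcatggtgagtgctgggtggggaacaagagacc
Tnnt2 (chr1:135836084-135836383, plus strand; AGATAA on the opposite strand at 166 and CATTCC at 27 bases before the start): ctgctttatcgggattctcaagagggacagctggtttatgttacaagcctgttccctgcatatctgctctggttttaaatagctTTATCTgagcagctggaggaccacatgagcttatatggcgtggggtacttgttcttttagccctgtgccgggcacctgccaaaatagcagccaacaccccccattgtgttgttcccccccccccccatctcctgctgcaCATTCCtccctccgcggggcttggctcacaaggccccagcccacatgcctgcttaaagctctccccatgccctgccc
Myh7 (chr14:54994577-54994876, minus strand; CATTCC on the opposite strand at 201 bases before the start): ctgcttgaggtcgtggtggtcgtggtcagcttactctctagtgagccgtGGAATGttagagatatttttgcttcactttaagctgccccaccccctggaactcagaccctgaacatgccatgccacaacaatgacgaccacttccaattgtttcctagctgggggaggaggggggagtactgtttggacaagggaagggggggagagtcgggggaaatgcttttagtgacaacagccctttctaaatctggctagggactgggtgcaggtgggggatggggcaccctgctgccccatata
Cav1 (chr6:17306085-17306384, plus strand; TATAAA on the opposite strand at 221 bases before the start): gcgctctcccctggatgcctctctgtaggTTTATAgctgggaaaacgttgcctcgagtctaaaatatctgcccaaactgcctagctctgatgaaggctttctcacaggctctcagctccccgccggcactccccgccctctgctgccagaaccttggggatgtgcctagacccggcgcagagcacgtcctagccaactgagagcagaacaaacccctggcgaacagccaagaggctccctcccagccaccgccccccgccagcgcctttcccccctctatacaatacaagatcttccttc
Windows were found for 21 of the 23 risen sarcomere genes. A CArG box lay in a window of 6 of these 21 genes (Dmd, Fhl1, Ldb3, Myl3, Myl7 and Myom1), or 28.6%, against 1.81% of all 27025 genes in the reference table. CATTCC lay in windows of 38.1% of the sarcomere genes and 16.6% of all genes, TATAAA in 23.8% and 15.7%, AGATAA in 14.3% and 12.7%, and the MEF2 site in 4.76% (1 gene, Mybpc3) and 0.636%. Counted per window, with 31 windows of sarcomere genes and 32851 in all, AGATAA went the other way, at 9.68% and 11.2%. TATAAA lay in 16.1% and 13.6% of these windows. The CArG box, CATTCC and the MEF2 site kept their direction. These are letter matches in a short window and were not tested, and some genes have overlapping windows at alternative starts.

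Of 16 genes of the thick filament, 9 rose and none was listed as fallen. Of the 9, 8 had 0 tags at day 1, so their direction was fixed by being listed. The median log2 fold was 6.57 when genes at 0 tags are set at their bound. It was the highest median of the 41 lists with at least 3 listed members. The atrial light chain gene Myl4 was at 93.2 TPM at day 14 and 0 at day 1 (at least 541-fold higher). The ventricular light chain gene Myl2 was at 19 TPM (at least 110-fold), Myl3 at 16.3 TPM (at least 94.8-fold) and the myosin binding protein gene Mybpc3 at 9.02 TPM (at least 52.4-fold), each against 0 tags at day 1. Smyd1, a methyltransferase gene needed to assemble myosin, was at 9.15 TPM at day 14 and 0 at day 1. The fast myosin gene Myh6 was at 3.27 TPM and 0 TPM, and the M band gene Myom1 at 7.51 TPM, against 2 tags at day 1.

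On the thin filament, 6 of 17 genes rose and none fell in the deposited table, with a median log2 fold of 2.61. The fetal troponin I gene Tnni1 was at 61.7 TPM at day 14 and 0 at day 1 (at least 358-fold higher). The adult isoform gene Tnni3 was at 10.7 TPM at day 14 and 1.49 TPM at day 1 (7.14-fold higher, 4.76 to 11.1). Tropomyosin genes were already present at day 1: Tpm1 stood at 178 TPM at day 14 and 55.5 TPM at day 1, and Tpm2 at 9.90 and 1.89 TPM. In the Z disc and costamere list, 8 of 29 genes rose and 1 fell. Ldb3 and Csrp3, both proteins of the Z disc, were at 9.69 and 10.1 TPM at day 14 and at 0 at day 1. Filamin C (Flnc) was at 185 TPM at day 14 and 39.5 TPM at day 1 (4.69-fold higher), and Nexn at 23.5 and 3.50 TPM (6.72-fold). Vcl, the vinculin gene of cell adhesions in many cell types, fell to 95.1 TPM at day 14, against 210 TPM at day 1.

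Followed over the days, the sarcomere genes differed in when they were highest. Myl7 was at 0 TPM at day 1, was not listed at days 4 and 7, and was at 29.7 TPM at day 10 and 267 TPM at day 14. Myl4 was at 2.48 TPM at day 7 and 32.8 TPM at day 10, and Tnni1 at 5.57 and 41.6 TPM. Tnnt2 and Myh7 entered the tables at day 10, at 8.78 and 3.98 TPM, and Myl2, Myh6 and the transcription factor gene Nkx2-5 were listed at day 14 but at none of the earlier days. Other members stood higher before day 14: Tnni3 was at 19.5 TPM at day 4 and not listed at days 7 and 10, Flnc was at 236 TPM at day 7, and Tpm2 was at 12.6 and 13.7 TPM at days 7 and 10. Fhl1, a LIM protein gene of muscle, was at 8.27, 45.9, 42.7, 53.7 and 41.2 TPM at days 1, 4, 7, 10 and 14. Csrp1, a LIM protein gene of smooth muscle and other cells, was at 62.8, 329, 172 and 131 TPM at days 1, 7, 10 and 14. Each day's table is set against the same day 1 libraries, so the values are given side by side and no day is tested against another.

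**Figure D2:**
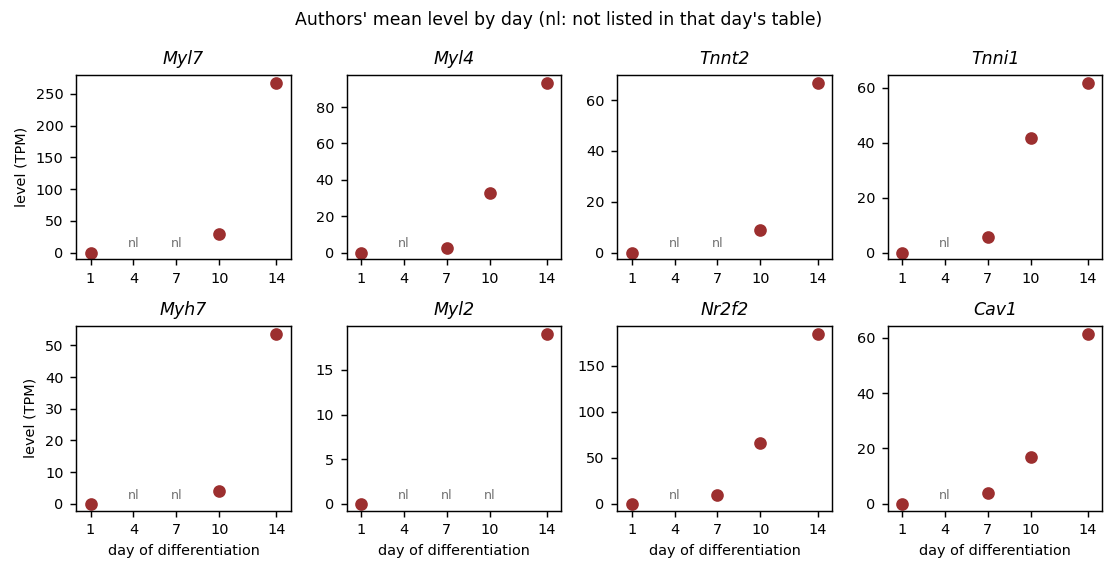
Authors' mean level in TPM (vertical axis, a separate linear scale in each panel) of 8 genes by day of differentiation (horizontal axis); each point is the mean of the libraries of that day and nl marks a day whose table does not list the gene. All 8 genes are at 0 TPM at day 1 and highest at day 14, and Myl2 has no value between.

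Of 27 regulators of heart muscle genes, 13 were listed and all 13 rose, with a median log2 fold of 4.89. For the 7 of them that came from 0 tags, no other direction was possible. Nr2f2, a nuclear receptor gene of atrial muscle that veins and mesenchyme also express, was at 184 TPM at day 14 and 0 at day 1 (at least 1070-fold higher). The progenitor gene Isl1, also used by motor neurons, was at 22.2 TPM at day 14 and Gata4, a zinc finger activator of cardiac genes, at 15.4 TPM, both against 0 tags at day 1. Smarcd3, a chromatin remodelling subunit that works with cardiac factors, was at 49.5 TPM at day 14 and 3.39 TPM at day 1 (14.6-fold higher). Tbx3, a repressor of the conduction system, was at 27.7 and 3.16 TPM, and Mef2c, an activator of muscle genes, at 12.1 and 2.98 TPM. Nkx2-5, the homeobox regulator of the heart, was low, at 4.57 TPM at day 14 against 2 tags at day 1, a 39.8-fold rise with an interval of 10.8 to 333. Gata6, Tbx5, Tbx20, Hand2 and Myocd are among the 14 genes of this list that the table does not hold.

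Calcium handling and channel genes rose in 14 of 39 cases and fell in 2. The median log2 fold of 3.60 rests on the floor used for 6 genes at 0 tags: without them it was 1.73, against 1.48 for all listed genes without 0 tags, and the summed level was 491 TPM at day 14 and 532 TPM at day 1. Slc8a1, the sodium-calcium exchanger that removes calcium after each beat, was at 81.5 TPM at day 14 and 0.63 TPM at day 1, a 129-fold rise (72.0 to 259). Phospholamban (Pln), the regulator of the calcium pump, was at 11.7 TPM, the calcium release channel gene Ryr2 at 5.83 TPM and the inward rectifier gene Kcnj2 at 6.75 TPM, each against 0 tags at day 1. Cacna1c, the L-type calcium channel gene, was at 7.22 TPM at day 14 and 0.57 TPM at day 1 (12.6-fold higher). The T-type channel gene Cacna1g fell to 9.02 TPM at day 14, against 22.2 TPM at day 1, and the gap junction gene Gja1 fell to 224 TPM, against 464 TPM. Among cardiac hormone genes, 1 of 8 was listed: Apln, the gene of the peptide apelin, fell to 9.23 TPM at day 14, against 26.1 TPM at day 1.

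Caveolae are small pits of the cell membrane built by caveolins and cavins and are dense in muscle, endothelium and fibroblasts. Of 10 caveolae genes 3 rose and none fell in the table. Beside Cav1, the cavin gene Ptrf was at 29.0 TPM at day 14 and 5.11 TPM at day 1 (5.68-fold higher, 4.55 to 7.17), and the cavin gene Sdpr at 2.22 TPM, against 2 tags at day 1. Cav1 was at 0 TPM at day 1, was not listed at day 4, and was at 3.73, 16.9 and 61.3 TPM at days 7, 10 and 14. Cav3, the caveolin of muscle fibres, is not listed.

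Markers of several other cell types rose in the same cultures, and their part in the heart muscle values was not tested. Of the short marker sets, 2 of 4 smooth muscle, 3 of 4 endothelial, 3 of 5 blood, 5 of 7 epicardial and fibroblast and 4 of 4 endodermal genes rose. Their summed levels were 113, 17.5, 36.0, 71.9 and 18.4 TPM at day 14, and 18.5, 0.12, 0, 1.14 and 0.40 TPM at day 1. Of 5 neural markers 1 rose and 2 fell, with 49.0 TPM at day 14 and 161 TPM at day 1, and of 3 markers of undifferentiated cells Pou5f1 fell. None of the 5 skeletal muscle markers (Ckm, Myf5, Myod1, Myog and Tnnt3) is in the table.

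The smooth muscle list had 4 of 15 genes listed, all risen. Acta2, smooth muscle actin, which early heart muscle also makes, was at 69.9 TPM at day 14 and 1.95 TPM at day 1 (35.8-fold higher, 25.5 to 51.9), and the light chain gene Myl9 at 142 and 6.60 TPM (21.4-fold, 17.8 to 26.1). Myh11, the myosin that defines mature smooth muscle, is not listed. Blood genes rose in 6 of 26 cases: the embryonic globins Hba-x and Hbb-y were at 26.7 and 6.46 TPM at day 14 and at 0 at day 1. Hba-x was at 118 TPM at day 10, above its level at day 14.

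Endothelial genes rose in 13 of 31 cases and fell in 1, with 9 of the 13 coming from 0 tags and a median log2 fold of 5.24. The junction genes Cdh5 and Pecam1 were at 8.98 and 5.45 TPM at day 14, and the receptor gene Tie1 at 7.93 TPM, all against 0 at day 1. Nrp1, a co-receptor for vascular growth factor that neurons and heart muscle also use, was at 49.4 TPM at day 14 and 0 at day 1 (at least 287-fold higher). The receptor gene Flt1 went the other way, to 1.38 TPM at day 14, against 10.8 TPM at day 1.

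Epicardium is the outer layer of the heart, and its cells give rise to fibroblasts. All 19 listed genes of the 26 on this list rose, with a median log2 fold of 4.36. The regulators Tbx18 and Tcf21 were at 24.2 and 13.5 TPM at day 14 and the epithelial factor gene Bnc1 at 30.1 TPM, all against 0 tags at day 1. Postn, the gene of the matrix protein periostin, was at 49.4 TPM at day 14, against 2 tags at day 1, a 431-fold rise with an interval of 119 to 3559. That rise rests on a count near 0 at day 1, as its wide interval shows. Vimentin (Vim), a filament of mesenchymal cells, was at 258 TPM at day 14 and 54.4 TPM at day 1 (4.74-fold higher). Wt1, another regulator of epicardium, is not listed.

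The matrix between cells is built of collagens and of glycoproteins that link them to the cell surface. Of 22 collagen genes 18 rose, and of 58 genes of glycoproteins, proteoglycans and remodelling 34 rose, with none listed as fallen in either list and median log2 folds of 4.00 and 2.69. Col1a1 and Col1a2, the chains of fibrillar collagen I, were at 19.3 and 30.5 TPM at day 14, against 6 and 2 tags at day 1. The basement membrane chains Col4a1 and Col4a2 were at 81.1 and 99.4 TPM at day 14 and already at 23.5 and 24.6 TPM at day 1, rises of 3.45-fold and 4.04-fold. The microfibril gene Mfap2 was at 149 TPM at day 14 and 4.94 TPM at day 1 (30.3-fold higher, 24.4 to 37.9). Fibronectin (Fn1) was at 108 TPM at day 14 and 23.1 TPM at day 1 and had been higher between, at 323 and 264 TPM at days 4 and 7. Tenascin C (Tnc) was at 24.3 TPM at day 14 and 0 at day 1, and the collagen chaperone gene Serpinh1 at 351 and 147 TPM.

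Adhesion genes rose in 14 of 27 cases and fell in 3. Cdh11, the cadherin of mesenchyme, was at 139 TPM at day 14 and 0.69 TPM at day 1, a 202-fold rise (115 to 391). The integrin gene Itga8 was at 28.1 TPM at day 14 and 0 at day 1, Itgav at 104 and 29.8 TPM, and Itgb1, the common β chain, at 316 and 130 TPM. Cdh1, the cadherin of epithelia and of undifferentiated cells, fell to 8.05 TPM at day 14, against 16.5 TPM at day 1, Itgb5 fell to 15.7 TPM, against 35.2 TPM, and Icam1 to 1.05 TPM, against 4.88 TPM.

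**Figure D3:**
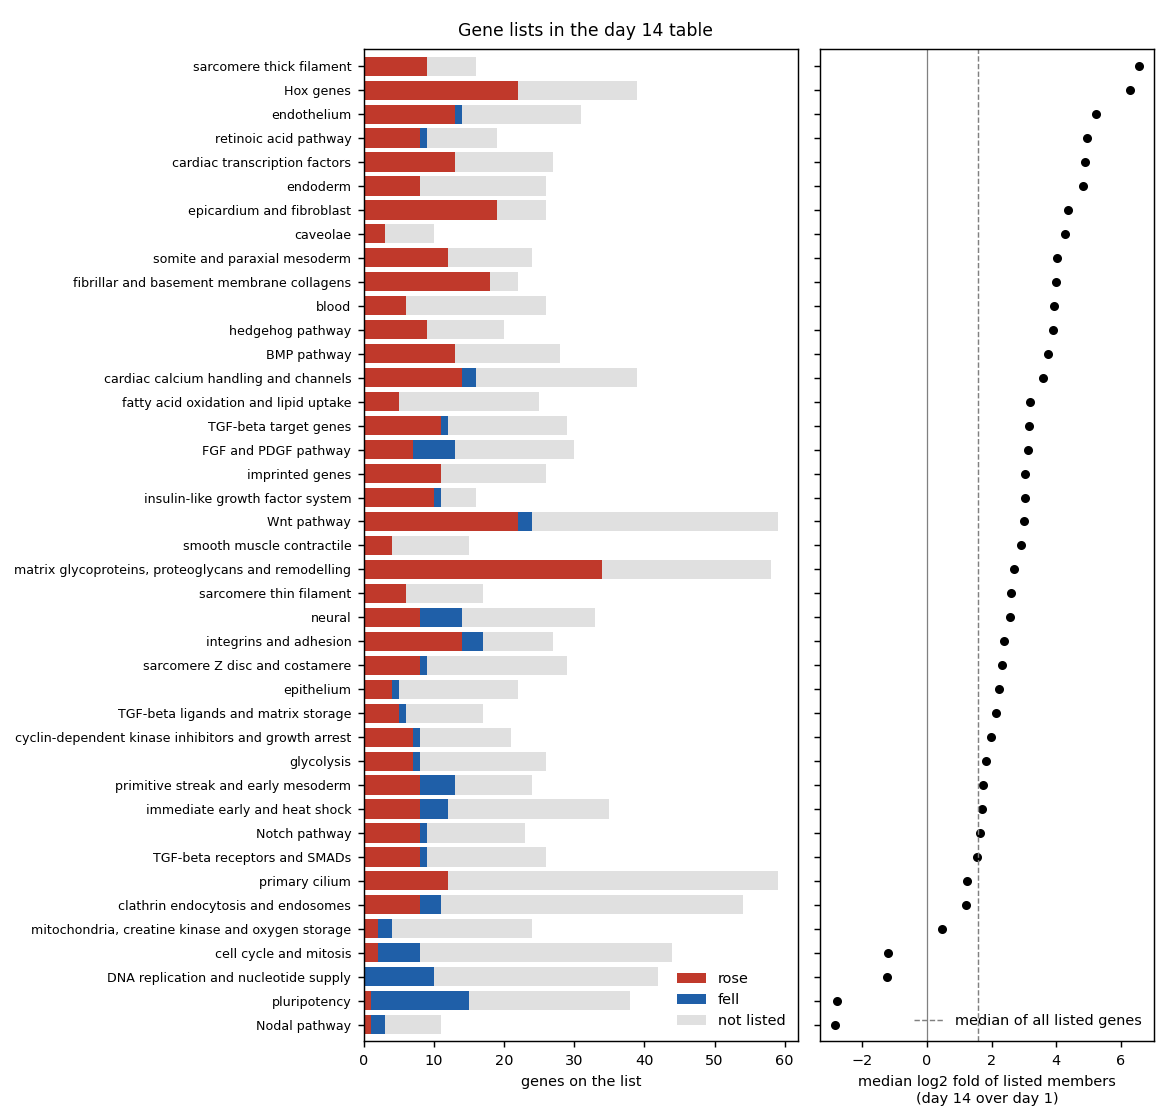
Left, number of genes of each list that the day 14 table gives as risen or fallen, and number not listed; right, median log2 fold (day 14 over day 1) of the listed members, with genes at 0 tags at their bound. Lists with at least 3 listed members are ordered by that median. Thick filament and Hox genes stand at the top, and the dashed line marks the median of all listed genes, 1.59.

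Signals of the TGF-β family act through paired receptors that phosphorylate SMAD proteins. Ligands are held latent in the matrix by binding proteins. Of the ligands and storage proteins 5 of 17 genes rose and 1 fell. Tgfb2 was at 21.1 TPM at day 14 and 1.09 TPM at day 1 (19.3-fold higher, 12.2 to 32.3), and the latent binding protein genes Ltbp1 and Ltbp3 were at 25.9 and 56.5 TPM at day 14, against 2.64 and 6.37 TPM at day 1. Follistatin (Fst), which traps activins, fell to 55.6 TPM at day 14, against 269 TPM at day 1, a 4.83-fold fall (4.55 to 5.14). Tgfb1 and Tgfb3 are not listed.

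Receptors and SMADs changed less: 8 of 26 genes rose and 1 fell, with a median log2 fold of 1.57, just under that of all listed genes, so the list median turns to -0.03 under median scaling. The type I receptor gene Tgfbr1 was at 145 TPM at day 14 and 48.9 TPM at day 1, and the type II receptor gene Tgfbr2 at 5.33 and 0.98 TPM. Smad3, which carries the TGF-β signal, was at 49.3 TPM at day 14 and 17.7 TPM at day 1. The inhibitory Smad6 was at 61.5 and 7.86 TPM (7.82-fold higher), and the decoy receptor gene Bambi at 45.6 and 5.51 TPM (8.28-fold). The co-receptor gene Tgfbr3 fell to 10.7 TPM at day 14, against 23.5 TPM at day 1. Smad2, Smad4 and Smad7 are not in the table.

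Genes known to respond to TGF-β in mesenchymal cells rose in 11 of 29 cases and fell in 1 (Itgb5), with a median log2 fold of 3.15. Most of the risen genes are also counted on other lists, so this count is not separate from those. Id1, Id2 and Id3 are on the BMP list, Acta2 and Tagln on the smooth muscle list, and Col1a1 and Col1a2 on the collagen list. Twist1, a regulator of mesenchyme, was at 176 TPM at day 14 and 2.87 TPM at day 1 (61.4-fold higher, 46.5 to 82.8), and Snai2, another, at 24.6 TPM, against 2 tags at day 1. Ctgf, a much used reporter of this pathway, is not listed.

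The BMP list, whose ligands promote heart formation in the embryo, had 13 of 28 genes listed and all 13 risen, with a median log2 fold of 3.74. The ligand gene Bmp4 was at 52.7 TPM at day 14 and 1.38 TPM at day 1 (38.3-fold higher, 25.6 to 59.9). Targets were high at day 14: Id2, a repressor of differentiation factors, was at 735 TPM at day 14 and 44.0 TPM at day 1 (16.7-fold, 15.5 to 18.0), Id1 at 141 and 32.4 TPM, and the homeobox gene Msx1 at 111 and 6.26 TPM. Antagonists rose too, with Nog at 10.5 TPM at day 14 and 0.34 TPM at day 1 and Bmper at 22.2 and 0.34 TPM. Id2 had reached 739 TPM at day 10, and Msx1 was higher at day 7, at 204 TPM, than at day 14.

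In the Nodal list, a signal of early mesoderm, 3 of 11 genes were listed. Nodal fell to 9.23 TPM at day 14, against 86.2 TPM at day 1 (9.34-fold lower, 8.10 to 10.8), and Gdf3 to 3.9 TPM, against 27.7 TPM. Its antagonist gene Lefty1 was at 30.7 TPM at day 14 and 10.9 TPM at day 1.

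Hedgehog signals pass through the primary cilium to the Gli transcription factors. All 9 listed genes of 20 rose, with a median log2 fold of 3.91. The ligand gene Shh was at 8.6 TPM and the target and antagonist gene Hhip at 6.25 TPM at day 14, both at 0 at day 1. Gli1, itself a target of the pathway, was at 19.5 TPM at day 14 and 0.69 TPM at day 1 (28.3-fold higher, 16.1 to 55.2). The co-receptor genes Gas1, Boc and Cdon were at 190, 43.9 and 85.6 TPM at day 14, against 12.7, 1.95 and 10.7 TPM at day 1. Ptch1 and Smo, the receptor and its partner, are not listed. Of 59 cilium genes 12 rose and none fell in the table, by small folds with a median log2 of 1.23, which turns to -0.36 under median scaling. The anterograde motor gene Kif3a was at 66.0 TPM at day 14 and 20.2 TPM at day 1, and the retrograde motor gene Dync2h1 at 26.6 and 8.67 TPM.

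**Figure D4:**
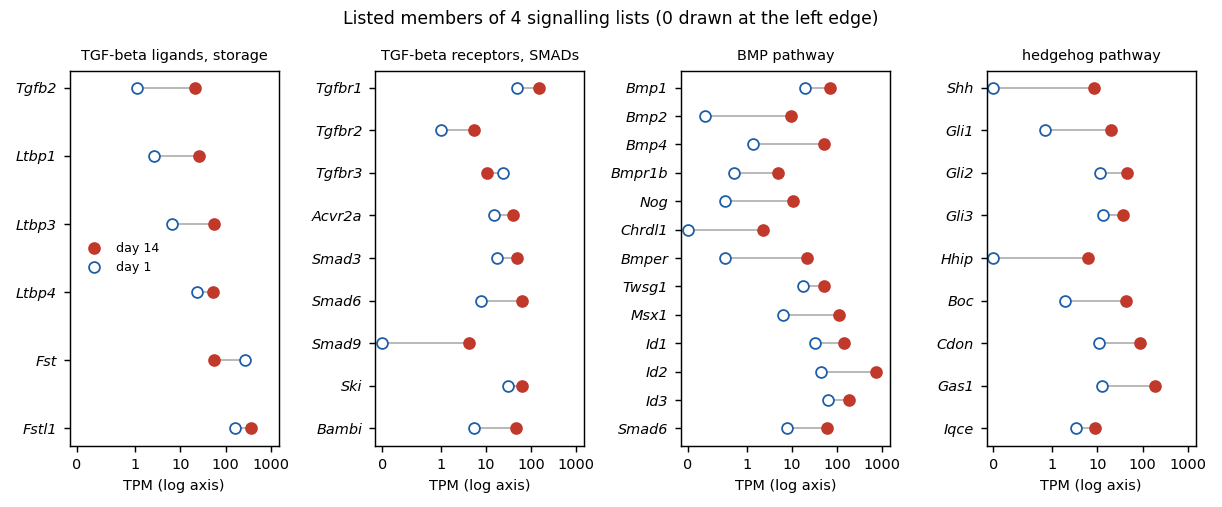
Level in TPM on a log axis (0 at the left edge) of the listed members of the TGF-β ligand and storage, TGF-β receptor and SMAD, BMP and hedgehog lists, with filled circles for day 14 and open circles for day 1. All listed BMP and hedgehog genes lie higher at day 14; Fst and Tgfbr3 are the members that lie lower.

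Endocytosis removes receptors from the membrane, mostly through clathrin pits. Of 54 genes 8 rose and 3 fell, a split near the 74.4% risen among all listed genes. Their median log2 fold of 1.20 turns to -0.39 under median scaling. Dab2, an adaptor for receptors, was at 141 TPM at day 14 and 9.64 TPM at day 1 (14.6-fold higher, 12.5 to 17.1), and the early endosome gene Eea1 at 26.9 and 12.7 TPM. Ehd3, a gene of endosome recycling, fell to 12.9 TPM at day 14, against 90.4 TPM at day 1 (7.02-fold lower, 6.20 to 7.95), and the receptor gene Lrp2 fell to 15 TPM, against 58.2 TPM. The clathrin heavy chain gene Cltc is not listed.

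Wnt genes rose in 22 of 59 cases and fell in 2, with a median log2 fold of 3.00. The secreted antagonist gene Sfrp1 was at 224 TPM at day 14 and 20.7 TPM at day 1 (10.8-fold higher, 9.73 to 12.1), and the ligand gene Wnt5a at 27.1 and 0.46 TPM (59.0-fold). Wnt3, a ligand needed to form the primitive streak, fell to 19.1 TPM at day 14, against 111 TPM at day 1 (5.85-fold lower, 5.28 to 6.49), and Wnt7a fell to 2.18 TPM, against 10.9 TPM. In the Notch list 8 of 23 genes rose and 1 fell. The target gene Hes5 fell to 3.61 TPM, against 14.7 TPM, while the targets Hey1 and Hey2, which act in heart and vessels, were at 9.19 and 3.65 TPM at day 14 and at 1.84 and 0 TPM at day 1.

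The FGF and PDGF list divided by member, with 7 of 30 genes risen and 6 fallen. All 4 fallen ligands, Fgf4, Fgf5, Fgf8 and Fgf15, are genes of undifferentiated cells or early embryos. Fgf5 fell to 6.80 TPM at day 14, against 161 TPM at day 1 (23.7-fold lower, 20.2 to 27.9), and the feedback gene Etv5 to 44.7 TPM, against 203 TPM. Among the risen ligands, Fgf10 was at 18.8 TPM at day 14 and 0 at day 1, and Pdgfc at 109 and 2.41 TPM (45.4-fold higher, 33.5 to 63.1). The PDGF receptor genes Pdgfra and Pdgfrb were at 12.5 and 15.6 TPM at day 14, against 0.80 and 0.12 TPM at day 1.

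Retinoic acid, made from vitamin A, patterns the inflow part of the heart. Of 19 genes 8 rose and 1 fell, with a median log2 fold of 4.95. The synthesis enzyme gene Aldh1a2 was at 61.8 TPM at day 14, against 2 tags at day 1, a 538-fold rise with an interval of 149 to 4446. The binding protein genes Crabp1 and Crabp2 were at 146 TPM each at day 14, against 2.12 and 15.2 TPM at day 1, and the receptor and target gene Rarb was at 44.0 and 0.52 TPM (85.1-fold higher, 44.7 to 187). Rxrg fell to 1.05 TPM at day 14, against 5.68 TPM at day 1.

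Imprinted growth genes gave the largest gains in TPM. Igf2, a fetal growth factor read from the paternal copy, stood at 3243 TPM at day 14 and 15 TPM at day 1, a 217-fold rise (192 to 245). H19, a non-coding RNA of the same locus read from the maternal copy, stood at 1187 and 2.70 TPM, a 440-fold rise (331 to 599). Plagl1, a zinc finger gene, was at 1105 TPM at day 14 and 50.9 TPM at day 1 (21.7-fold higher, 20.3 to 23.3), and Peg10 at 795 and 130 TPM (6.10-fold). Igf2 and H19 were higher at each later day. At days 4, 7 and 10, Igf2 was at 108, 501 and 2147 TPM and H19 at 39.8, 166 and 697 TPM. All 11 listed genes of the 26 imprinted genes rose. In the insulin-like growth factor system, 10 of 16 genes rose and 1 fell: the receptor gene Igf2r, which clears Igf2, was at 105 TPM at day 14 and 12.9 TPM at day 1 (8.18-fold higher), and the RNA binding protein gene Igf2bp1 fell to 78.9 TPM, against 174 TPM.

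Hox genes record position along the body axis. Of 39 genes 22 rose and none fell in the table; 18 of the 22 had 0 tags at day 1, and the median log2 fold was 6.28. They came from all 4 clusters, with 7 of 11 Hoxa, 8 of 10 Hoxb, 4 of 9 Hoxc and 3 of 9 Hoxd genes. Hoxd10 was at 62.7 TPM at day 14 and 0 at day 1 (at least 364-fold higher), Hoxc6 at 36.2 and 0 TPM (at least 210-fold), and Hoxa5 at 28.5 and 0 TPM (at least 166-fold). Hoxd10 had been higher before, at 93.9 and 102 TPM at days 7 and 10.

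Genes of undifferentiated cells fell. Of 38 genes 14 fell and 1 rose, Tbx3, which is also a gene of the developing heart, with a median log2 fold of -2.78. Pou5f1 fell to 144 TPM at day 14, against 1489 TPM at day 1 (10.4-fold lower, 9.99 to 10.7). The methyltransferase gene Dnmt3b fell to 20.9 TPM, against 264 TPM (12.7-fold lower, 11.5 to 13.9), Utf1 to 35.1 TPM, against 371 TPM (10.6-fold, 9.85 to 11.4), and L1td1 to 6.88 TPM, against 189 TPM (27.4-fold, 23.5 to 32.3). Pou5f1 was at 1489, 678, 235, 117 and 144 TPM at days 1, 4, 7, 10 and 14. Nanog and Sox2 are not in the day 14 table.

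Mesoderm genes of the primitive streak were split, with 8 of 24 risen and 5 fallen. Eomes fell to 11.1 TPM at day 14, against 90.4 TPM at day 1 (8.13-fold lower, 7.13 to 9.29), and T, the gene of brachyury, to 30.4 TPM, against 156 TPM (5.13-fold). T had been higher at day 4, at 701 TPM. Somite genes rose in 12 of 24 cases with no listed fall. Pax3, a regulator of somites and of neural crest and the single skeletal muscle list gene in the table, was at 21.9 TPM at day 14 and 0 at day 1, and Tbx6, which peaked at 669 TPM at day 4, at 13.3 and 2.47 TPM.

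Endoderm genes rose in 8 of 26 cases with none fallen in the table. Outside Gata4 and Dab2, which heart and other tissues share, the listed members stood at day 14 between 2.18 TPM for Ttr, a carrier of thyroid hormone, and 10.7 TPM for Apob, a protein of lipid transport. Neural genes moved both ways, with 8 of 33 risen and 6 fallen. Stmn2, a gene of growing neurons, fell to 32.1 TPM at day 14, against 149 TPM at day 1, and Gng3 to 3.31 TPM, against 57.7 TPM (17.4-fold lower, 13.8 to 22.2). The progenitor gene Sox1 was at 16.7 TPM at day 14 and 0.92 TPM at day 1. Among epithelial genes 4 of 22 rose and Cdh1 fell; the keratin genes Krt8 and Krt18 were at 65.2 and 45.1 TPM at day 14 and at 13.9 and 5.97 TPM at day 1.

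Genes of cell division were mostly lower at day 14 where listed. In DNA replication and nucleotide supply 10 of 42 genes fell and none rose, and in cell cycle and mitosis 6 of 44 fell and 2 rose, with median log2 folds of -1.24 and -1.21. Mcm2, part of the replication helicase, fell to 87.8 TPM at day 14, against 204 TPM at day 1 (2.33-fold), and the mitotic kinase gene Plk1 to 48.4 TPM, against 157 TPM (3.25-fold). The cyclin genes Ccnd1 and Ccnd2, which act in the growth phase before replication, rose, Ccnd2 to 215 TPM, against 58.4 TPM (3.67-fold). Brakes of the cycle rose in 7 of 21 cases and fell in 1: the inhibitor gene Cdkn1b was at 41.9 TPM at day 14 and 15.6 TPM at day 1.

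Most energy genes are not in the table, so their change is not known from it. In glycolysis 7 of 26 genes rose and 1 fell. The muscle enolase gene Eno3 was at 22 TPM at day 14 and 5.0 TPM at day 1 (4.41-fold higher). Another enolase gene, Eno2, rose more, to 40.7 TPM at day 14, against 3.1 TPM at day 1 (13.1-fold). The muscle phosphoglycerate mutase gene Pgam2 was at 6.29 and 0 TPM. The fallen member, Slc16a3, was at 43.1 TPM at day 14, against 118 TPM at day 1. All 5 listed fatty acid genes of 25 rose, among them Cd36, a fatty acid carrier, at 3.06 TPM at day 14 and 0 at day 1. In the mitochondrial list, 2 of 24 rose and 2 fell, with a median log2 fold of 0.48 that turns to -1.11 under median scaling. Cox6a2, the muscle form of a respiratory subunit, was at 5.54 TPM at day 14 and 0 at day 1, while Atp5b, of the ATP synthase, fell to 856 TPM, against 1727 TPM.

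Immediate early and heat shock genes rose in 8 of 35 cases and fell in 4. Jun was at 61.6 TPM at day 14 and 10.1 TPM at day 1 (6.10-fold higher). The chaperones divided: the small heat shock genes of muscle, Hspb7 and Cryab, were at 5.16 and 6.0 TPM at day 14, against 0 and 2 tags at day 1, while Hsp90aa1 fell to 248 TPM, against 845 TPM (3.40-fold) and Hsph1 to 34.1 TPM, against 112 TPM (3.28-fold). Of 45 ribosomal protein genes 1 was listed, Rpl22, at 35 TPM at day 14 and 5.05 TPM at day 1.

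Among genes with an entry in the symbol column, the 12 largest rises by the interval end nearest to no change were Myl7, Nr2f2, Myl4, H19, Tnnt2, Hoxd10, Tnni1, Cav1, Myh7, Flrt2, Nrp1 and Unc5c. Meis1, a homeobox gene whose symbol was read from the description, has its nearest interval end at 283 and would stand between Cav1 and Myh7 in that order. Flrt2, an adhesion protein of heart and axon guidance, was at 50.2 TPM at day 14 and 0 at day 1 (at least 291-fold higher), and Unc5c, a netrin receptor gene, at 41.2 and 0 TPM (at least 239-fold). Of the 12, 5 are on the sarcomere lists. The 12 largest falls in order of the same measure were Pllp, Slc5a5, L1td1, Fgf5, Trim54, Nefl, Trp73, Cited1, Gng3, Slc4a11, Cd209c and Foxd3. Pllp, a membrane protein gene of epithelia and myelin, was at 0 tags at day 14 and 6.37 TPM at day 1 (at least 50.6-fold lower). Trim54, a gene of striated muscle that the sarcomere lists leave out, was at 0 tags at day 14 and 3.21 TPM at day 1 (at least 25.5-fold lower). Cited1, a co-activator gene, fell to 37.9 TPM at day 14, against 597 TPM at day 1 (15.8-fold, 14.7 to 16.9), and Cd209c, a lectin gene with near-identical relatives, to 40.4 TPM, against 517 TPM (12.8-fold, 12 to 13.7). Slc4a11 rested on 2 tags at day 14, and its 47.2-fold fall had an interval of 12.6 to 398.

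**Figure D5:**
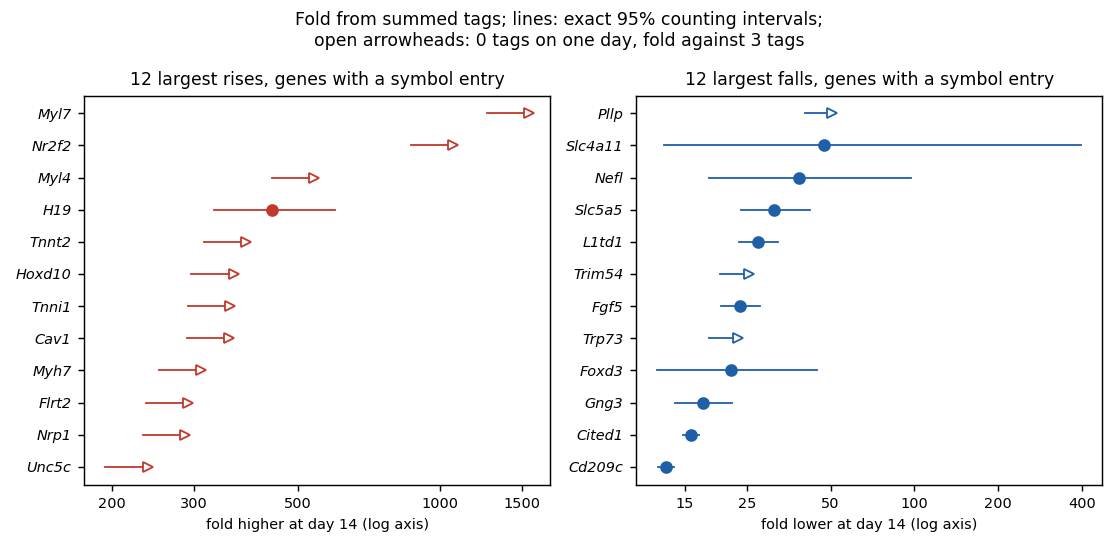
Fold of the 12 largest rises (left) and 12 largest falls (right) among genes with an entry in the symbol column. They were chosen by the interval end nearest to no change and drawn in order of the fold itself, on log axes. Lines are exact 95% counting intervals. Open arrowheads are genes at 0 tags on 1 day, whose fold is against 3 tags and a bound set by that floor only. Myl7 and Nr2f2, at least 1552-fold and 1070-fold higher, lead the rises, and Pllp, at least 50.6-fold lower, leads the falls.

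By TPM, the 8 largest gains were Igf2, H19, Plagl1, Gpc3, Id2, Peg10, Erdr1 and the gene 2410006H16Rik. Gpc3, a glypican that holds growth factors at the cell surface, was at 949 TPM at day 14 and 89.3 TPM at day 1 (10.6-fold higher, 10.1 to 11.2), after 1246 TPM at day 4. The 8 largest losses were Pou5f1, Eif5a, Atp5b, Atp5g3, Ncl, Chchd10, Dut and Pfn1. Among these, Dut, which keeps uracil out of DNA, fell to 212 TPM at day 14, against 956 TPM at day 1 (4.52-fold, 4.38 to 4.66), and Chchd10, a mitochondrial protein gene, to 237 TPM, against 986 TPM (4.16-fold, 4.04 to 4.29). Eif5a, a translation factor, fell to 362 TPM, against 1341 TPM, and Ncl, the nucleolar protein nucleolin, to 456 TPM, against 1208 TPM.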

How the data were processed

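The series measured tag counts per gene in 19 libraries of P19CL6 cells, and the labels' protocols name Illumina's DGE Tag Profiling Kit (protocol 2.1B). Build mm9 is named in the submitters' processing notes. Names of the aligner and of the authors' test, and how shared tags were handled, were not given in the sources used here. Per the file headers, the deposited table holds the mean raw count of tags for each day, a TPM value scaled by the authors and their log2 ratio. In the deposited TPM columns 0.01 stands for 0. The table is filtered by the authors, and its smallest absolute log2 ratio is 1.0. The deposited P-Value and FDR columns were read as a score of unknown scale, because 12.54% and 55.93% of their entries exceed 1, and were not used.

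Tag sums were recovered as the deposited mean count times the number of libraries, 4 at day 14 and 3 at day 1, and 100% were whole within 0.02 of the mean. The fold of a gene is the ratio of its tag sums over the library totals, with exact Clopper-Pearson intervals at 95%, and 0 tags were set to a floor of 3. PCR reads without molecular identifiers are not independent molecules. With 0 columns of single libraries in the table, no test between replicates, no replicate error and no adjusted p could be computed. There were 0 unmapped columns of per-sample values. Symbols were read from the description for 85 of the 86 entries with a blank symbol. The code for folds and intervals was tested on simulated tag sums that held counting error only. Expected day 1 sums were set well above 0 there, so folds against sums at or near 0 were not covered.

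The members and the 44 gene lists were chosen with earlier results of these data known. Genes were named by this rule, in which entries with a blank symbol column could not enter the largest changes: the 12 largest rises and falls by the interval end nearest to 1, the 8 largest gains and losses in TPM, up to 6 listed members of each list with the highest TPM, and a set of markers. Other genes named in the text were chosen after their values were seen. Alternatives were another floor, a pseudocount of 1 TPM, a filter on level, the deposited ratios, and scaling to the median gene. Intervals came from scipy 1.17.1, tables from pandas 2.3.3 with numpy 2.4.6, and plots from matplotlib 3.10.9, under Python 3.11.15. Some members of the lists are not reported here.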

Additional observations from a re-analysis of the deposited data

How the results depend on the processing

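No paired analysis was possible because the table holds pooled means for each day, so neither the replicate block nor leaving out a replicate was run. With genes at or above the median level of 22.2 TPM, 932 genes rose and 480 fell, 173 were at least 8-fold higher and 18 at least 8-fold lower, and 66.0% of listed genes rose. With TPM + 1 the large changes numbered 264 and 15. By the interval end nearest to 1, 21 genes stayed at least 8-fold lower. Among genes changed at least 4-fold, 87.4% rose. Scaled to a median log2 fold of 0, 1411 genes fell, and the list medians became -0.028 for TGF-β receptors and SMADs, -0.358 for primary cilium, -0.39 for clathrin endocytosis and -1.109 for mitochondria; among genes in sentences with a fold, Ccnd1 and Eea1 became -0.006 and -0.515, and any other gene that rose by less than 3.02-fold turns as well, Tgfbr1, Smad3, Itgb1, Serpinh1, Cdkn1b and Lefty1 among them. With genes at or above the median level, medians became -1.658 for FGF and PDGF, -2.467 for primitive streak, -1.883 for neural genes and -1.012 for mitochondria. With at least 1 tag on each day they became -1.419 for neural genes and -1.012 for mitochondria. A filter on level or tags tests fewer genes by construction, and median scaling splits the listed genes evenly by construction. Beyond that, the cause was not tested. The floor of 6 tags and the use of the symbol column alone were chosen after seeing the data, and neither turned a direction. The floor of 6 tags lowered the log2 fold of Myl7 to 9.6, against 10.6 as reported, and moved 22 of 107 genes and 10 of 41 list medians beyond their limits (the counting interval for a gene, 0.5 on the log2 scale for a list); TPM + 1 moved 49 genes and 19 list medians. Without genes at 0 tags, medians were 6.03 for thick filament, 5.30 for Hox, 4.76 for endothelium, 3.50 for cardiac transcription factors and 3.00 for hedgehog genes. The thick filament value is that of Myom1 alone, which had 2 tags at day 1. The Hox value leaves out 18 of the 22 listed genes. Neither shows that the list median holds without the floor. Counting error is widest where day 1 holds 2 tags.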

Other observations

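Further regulators outside the lists, chosen after their values were seen, were higher at day 14. Meis1, a homeobox cofactor of Hox proteins, was at 117 TPM at day 14, against 2 tags at day 1, a 1023-fold rise with an interval of 283 to 8450. Its relative Meis2 was at 229 TPM at day 14 and 20.1 TPM at day 1 (11.4-fold higher, 10.2 to 12.7). Zfp503, a zinc finger gene, was at 171 and 0.63 TPM (271-fold, 151 to 544). Prrx1, a homeobox gene of mesenchyme, was at 40.0 TPM at day 14 and 0 at day 1 (at least 232-fold higher), and the nuclear factor I genes Nfia and Nfib were at 22.6 and 64.5 TPM at day 14, against 0 and 0.63 TPM at day 1. Tshz1, another zinc finger gene, was at 137 and 3.73 TPM (36.8-fold, 28.8 to 47.8).

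Guidance genes, which steer axons and migrating cells, were also higher, chosen in the same way. The ligand gene Slit2 was at 35.5 TPM at day 14 and 1.26 TPM at day 1 (28.1-fold higher, 18.5 to 45.1). Flrt3, a relative of Flrt2, was at 71.0 and 4.30 TPM (16.5-fold, 13.1 to 21.1), and the ephrin receptor gene Epha7 at 39.8 and 3.56 TPM (11.2-fold, 8.64 to 14.7). Sema6d, a semaphorin gene, was at 25.4 TPM at day 14, against 2 tags at day 1.

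The recovered tag sums of day 1 skipped some small values. Over the 4213 genes of all tables, 330 had a sum of 0, 99 a sum of 2 and 31 a sum of 6, while sums of 1, 3, 4 and 5 occurred in 0 genes. Among the genes listed at day 14, a sum of 0 was found in 270 genes, of 2 in 82 genes and of 6 in 25 genes.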
